A study of Mus musculus with 18 samples.

Results

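The genes described here are 39 genes of mouse colon that type I interferon induces and that take part in the defence against viruses. They were taken by symbol from a list of 39 named genes, with no measured value in the rule, and all 39 of 39 were present among the 16321 genes of the deposited gene tables and passed the filter on low counts. The choice of the list was made with earlier results of these data known. The 39 genes were measured by bulk sequencing of polyadenylated RNA from distal colon of BALB/c mice. The mutant animals lacked the gene for interleukin 10 (Il10KO), a cytokine that holds back inflammation in the gut, and such mice develop colitis without any treatment. Il10KO mice were sampled at weeks 6, 8, 10, 12 and 14 of age and wild-type mice (WT) at week 6, with 3 different mice in each of the 6 groups. All 15 Il10KO mice carried the same deletion, and the labels name no treatment. The Il10KO mice came from cages A to F and all 3 wild-type mice from cage G, so genotype and cage cannot be told apart. Wild-type mice of later ages were not analysed here, so age and colitis cannot be told apart in the later Il10KO groups.

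Type I interferons signal through the receptor IFNAR1 and IFNAR2 and the kinases JAK1 and TYK2, which phosphorylate STAT2. STAT2 and IRF9 are parts of the complex ISGF3, which binds the interferon-stimulated response element (ISRE) of target genes. Type III interferons, the lambda interferons, reach the same complex through a receptor made mainly by epithelial cells, and in gut epithelium they are known for control of enteric viruses. Interferon gamma acts mainly through another element (GAS) and induces some of the same genes. The proteins made by the target genes sense viral nucleic acid, degrade or trap viral RNA, block viral entry and release, modify other proteins with ISG15, or feed back on the pathway itself.

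The promoters of the members show how widely the ISRE letters occur among them. A promoter here was the stretch from 250 bases before to 50 bases after an annotated gene start, from RefSeq on build GRCm38.p6. Of the 39 members, 29 matched a promoter by symbol, and Dhx58, Zbp1, Oas2, Mx1, Mx2, Usp18, Parp9, Parp14, Rtp4 and Ifi27l2a did not. The letters GAAANNGAAA or, on the other strand, TTTCNNTTTC occurred in 14 of these 29 members (48.3%), against 1131 of all 32851 promoters (3.44%) and 1079 of 27025 gene symbols (3.99%). The GAS letters TTCNNNGAA, which read the same on both strands, occurred in 5 of the 29 members (17.2%), against 9.55% of gene symbols. Overlapping matches were allowed for both motifs. A match describes letters and does not show that a factor binds there. Below, capitals mark the ISRE letters, each window is written 5′ to 3′ on the strand of its gene, and up to 10 bases stand on each side of the matches. Isg15 is shown for its chain of overlapping matches, at chr4:156200865-156200906 on the minus strand, and Ifit1 and Rsad2 for their levels in 1 wild-type library described further on, at chr19:34640775-34640823 on the plus strand and chr12:26456553-26456582 on the minus strand. These 3 were picked after their values were seen. Trim30a is shown as a member with full values at week 10, with the first of its 2 annotated starts, at chr7:104465210-104465239 on the minus strand.
Isg15: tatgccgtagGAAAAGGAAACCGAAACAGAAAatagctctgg
Ifit1: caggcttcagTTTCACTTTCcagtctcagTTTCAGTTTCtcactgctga
Rsad2: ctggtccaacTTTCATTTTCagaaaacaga
Trim30a: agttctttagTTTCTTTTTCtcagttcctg

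Both near-identical pairs of members carried the same letters at both copies. The windows of Ifit3 lie at chr19:34583363-34583392 and chr19:34583397-34583426 and those of Ifit3b at chr19:34607759-34607788 and chr19:34607793-34607822, all on the plus strand. The windows of Oas1a (chr5:120907520-120907555) and Oas1g (chr5:120887606-120887641) lie on the minus strand. They are printed because the paired genes share so much sequence that reads may have been divided between them.
Ifit3, first window: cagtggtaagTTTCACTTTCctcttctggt
Ifit3b, first window: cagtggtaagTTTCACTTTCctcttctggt
Ifit3, second window: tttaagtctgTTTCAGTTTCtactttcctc
Ifit3b, second window: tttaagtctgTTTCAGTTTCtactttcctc
Oas1a: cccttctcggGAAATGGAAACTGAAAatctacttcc
Oas1g: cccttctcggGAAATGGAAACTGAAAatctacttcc

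The leading transcripts of Ifit3 and Ifit3b were identical at 97.8% of 1700 aligned columns, and those of Oas1a and Oas1g at 97.5% of 1860. The level of each gene of such a pair is therefore uncertain.

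The 3 other promoters printed belong to members with full values at week 10 and hold no ISRE letters; each is the promoter nearest to the GENCODE start. They are those of Irf9 (chr14:55603735-55604034, plus strand), Ifit2 (chr19:34550444-34550743, plus strand) and Samd9l (chr6:3399522-3399821, minus strand). The start used for Irf9 lies 414 bases from its GENCODE start, which falls outside the printed stretch. The letters around that GENCODE start were therefore not searched. Capitals mark the GAS letters, of which Ifit2 has 1 match.
Irf9: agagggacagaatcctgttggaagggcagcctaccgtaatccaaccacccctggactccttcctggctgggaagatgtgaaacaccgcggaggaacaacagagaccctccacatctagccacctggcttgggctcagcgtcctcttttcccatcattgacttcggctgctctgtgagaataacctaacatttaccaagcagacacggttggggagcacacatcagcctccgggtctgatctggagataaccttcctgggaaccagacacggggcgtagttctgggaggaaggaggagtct
Ifit2: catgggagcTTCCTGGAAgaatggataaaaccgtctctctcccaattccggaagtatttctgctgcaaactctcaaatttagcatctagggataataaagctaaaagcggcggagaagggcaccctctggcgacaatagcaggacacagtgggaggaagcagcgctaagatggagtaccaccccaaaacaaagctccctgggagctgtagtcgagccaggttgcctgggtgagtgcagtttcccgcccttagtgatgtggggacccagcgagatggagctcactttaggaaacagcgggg
Samd9l: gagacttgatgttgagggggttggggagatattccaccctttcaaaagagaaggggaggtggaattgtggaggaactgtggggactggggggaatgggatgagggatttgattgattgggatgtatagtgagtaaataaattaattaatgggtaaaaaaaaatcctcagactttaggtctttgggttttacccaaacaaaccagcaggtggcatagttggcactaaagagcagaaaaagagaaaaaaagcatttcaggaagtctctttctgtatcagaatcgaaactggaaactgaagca

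Library totals lay between 26495521 and 35497101 estimated counts. Il10 had 0 counts in all 15 Il10KO libraries, against 1, 0 and 3 counts in wild type, so the knockout could not be checked beyond these few counts. The summed level of 12 colon epithelium markers was 8439 to 20124 CPM (counts scaled to the effective library size) over the 18 libraries. Week 14 replicates 2 and 3 had RNA integrity numbers (RIN) of 6.5 and 5.8, where the 16 remaining libraries had 8.4 to 9.3. Their summed neutrophil markers reached 15220 and 9985 CPM, against 5.3 CPM in week 14 replicate 1, 235 to 5065 CPM at week 10 and 2.69 to 4.10 CPM at week 6 of Il10KO. Wild-type replicate 2 stood apart in the members themselves, as described below. In tissue of mixed cells, more cells that express a gene and more RNA per cell cannot be told apart. Changes are log2 fold changes from 1 edgeR quasi-likelihood fit of all 18 libraries, and p-values are adjusted over 16300 genes. The SE was taken as the size of a change over the root of its F.

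**Figure D1:**
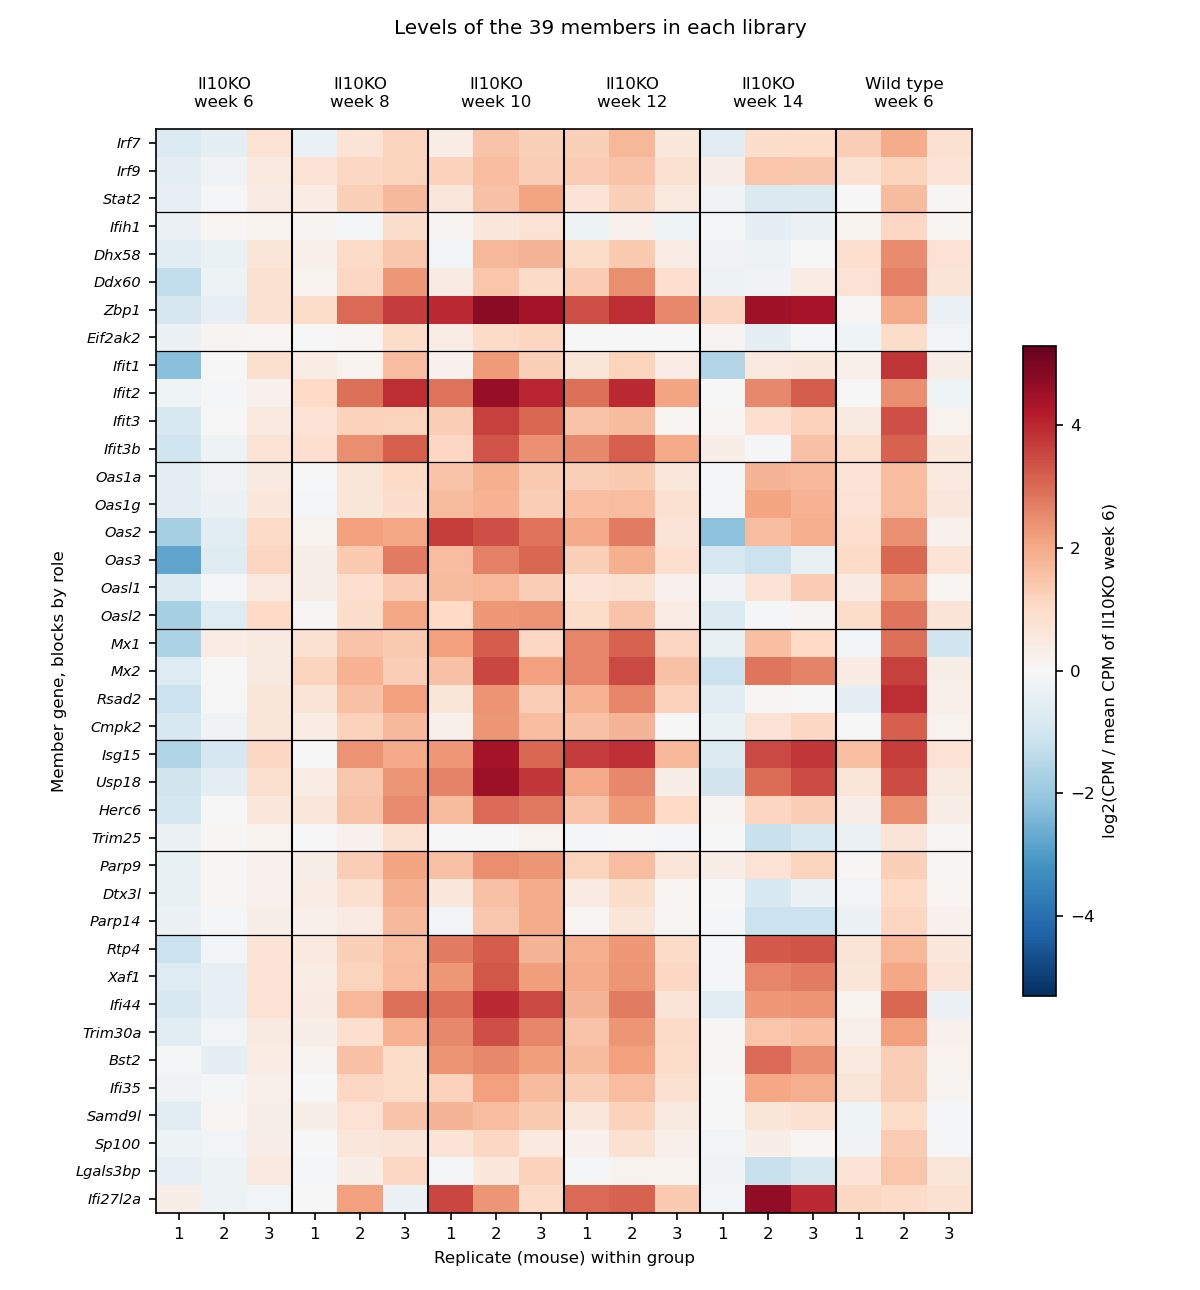
Level of each of the 39 members (rows, in blocks by role) in each of the 18 libraries (columns, 3 mice per group), as log2 of the CPM over the mean CPM of Il10KO week 6. Zbp1 and Ifit2 are high from week 8 to week 12, week 14 replicate 1 looks like week 6, and wild-type replicate 2 is high for most members.

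Compared per length in TPM (the deposited abundance scaled by transcript length), the members spanned a wide range of levels. The mean over the 18 libraries was lowest for Mx2 at 1.77 TPM and highest for Ifi27l2a at 179 TPM. Of the signalling factors, Irf7, which amplifies interferon production, was highest. It averaged 59.9 ± 34.99, 85.6 ± 35.4, 91.3 ± 38.01, 92.5 ± 31.6 and 36.8 ± 4.17 TPM in Il10KO at weeks 6, 8, 10, 12 and 14, and 157 ± 63.8 TPM in wild type (SD, n = 3 each, as for the means that follow). Zbp1 led the sensors, with 23.9 ± 15.8, 143 ± 92, 326 ± 104, 159 ± 48 and 139 ± 82.9 TPM at the 5 Il10KO ages and 46.4 ± 40.3 TPM in wild type. The means of Irf7 at weeks 6 to 12 lay within about 1 SD of each other and its wild-type mean was the highest, whereas the week 10 mean of Zbp1 lay far above those of week 6 and wild type.

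Ifit1, which binds viral RNA that lacks host cap methylation, had the highest mean log2(TPM + 1) of the IFIT family over the 18 libraries, although Ifit2 had higher Il10KO means at weeks 8 to 14. Its means were 13.3 ± 10.9, 23.2 ± 12.6, 24.6 ± 14.7, 14.7 ± 3.64 and 4.96 ± 1.103 TPM in Il10KO and 70.5 ± 94.4 TPM in wild type, where the SD exceeded the mean. Oas1a, an oligoadenylate synthetase that activates RNase L, had 57.6 ± 21, 82.8 ± 21.9, 117 ± 19.8, 79.8 ± 16.3 and 52.4 ± 8.29 TPM in Il10KO and 115 ± 52.1 TPM in wild type. Cmpk2, a mitochondrial nucleotide kinase encoded beside Rsad2, had 8.201 ± 4.28, 17.4 ± 6.01, 17.7 ± 10.5, 12.8 ± 5.99 and 4.94 ± 1.44 TPM in Il10KO and 29.8 ± 37.2 TPM in wild type. These 3 genes were highest in wild type or at week 10, and their week 14 means on this scale were no higher than at week 6.

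Isg15, a ubiquitin-like protein that is joined to other proteins, had 26.98 ± 26.7, 82.6 ± 47.6, 205 ± 136, 176 ± 97.3 and 66.6 ± 49.6 TPM in Il10KO and 155 ± 162 TPM in wild type. Parp9, which acts with the ubiquitin ligase DTX3L, had 30.2 ± 6.49, 74.2 ± 36.8, 96.1 ± 41.4, 46.2 ± 12.8 and 23.3 ± 12.4 TPM in Il10KO and 44.6 ± 25.6 TPM in wild type. Ifi27l2a, a small mitochondrial membrane protein of the ISG12 family, had 63.99 ± 17.7, 124 ± 116, 241 ± 150.1, 267 ± 127 and 249 ± 173 TPM in Il10KO and 128 ± 12.4 TPM in wild type. Over all members and in CPM, the highest of the 5 Il10KO group means fell on week 10 for 30 of 39 members. It fell on week 12 for 6 members, on week 14 for 2 and on week 8 for 1. The lowest was at week 6 for 28 members and at week 14 for 11. In TPM the highest mean fell on week 10 for 25 members, on week 8 for 10 and on week 12 for 4, and the lowest on week 14 for 27 and on week 6 for 12, so the place of week 14 depended on the scale.

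Between week 10 and week 6 of Il10KO, the antiviral genes were higher together. Of the 39 members, 23 rose and 0 fell, where 14.6% of all genes tested rose. All 39 changes were positive, with a median log2 change of 1.74, against 0.01 over all genes tested. The 3 week 10 mice lay above the 3 week 6 mice for 29 of the 39 members, against 27.5% of all genes. The 6 members with the smallest p were Zbp1, Parp9, Trim30a, Irf9, Samd9l and Ifit2.

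Zbp1, a sensor of Z-form nucleic acid that can trigger necroptosis, had 206, 366 and 289 CPM at week 10, against 7.19, 9.89 and 23.3 CPM at week 6. The lowest week 10 mouse was far above the highest week 6 mouse, and the log2 change was 4.41 ± 0.92 (SE; adjusted p = 0.00811). Ifit2, an IFIT protein linked to cell death and RNA binding, had 83.1, 278 and 188 CPM at week 10, against 9.697, 10.9 and 13.4 CPM at week 6. These groups did not overlap either, with a log2 change of 4.01 ± 0.95 (adjusted p = 0.0135). Trim30a, a TRIM protein that dampens Toll-like receptor signalling, had 73.8, 136 and 77.01 CPM at week 10, against 8.66, 11.6 and 17.9 CPM at week 6. Its groups did not overlap, and its change was 2.91 ± 0.61 (adjusted p = 0.00849).

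Parp9 had 171, 318 and 290.4 CPM at week 10, against 43.7, 61.2 and 68.1 CPM at week 6. All week 10 mice were above all week 6 mice, with a change of 2.17 ± 0.45 (adjusted p = 0.00826). Samd9l, which restricts viral translation, had 249, 219.5 and 187 CPM at week 10, against 48.8, 77.1 and 86.8 CPM at week 6, again without overlap. Its change was 1.62 ± 0.38 (adjusted p = 0.0132). Irf9, the DNA-binding part of ISGF3, had 69.5, 92.1 and 73.5 CPM at week 10, against 20.96, 25.7 and 42.01 CPM at week 6. Its groups were separate and its change was 1.41 ± 0.32 (adjusted p = 0.0118).

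By role, 2 of the 3 signalling factors rose (Irf9 and Stat2), and Irf7 had a log2 change of 1.14 without passing the test. Of the 5 sensors, Zbp1 alone rose; Ifih1 and Dhx58, which sense double-stranded RNA, had 0.50 and 1.38, Ddx60 had 1.03 and Eif2ak2, the kinase PKR, had 0.88. Of the 4 IFIT genes, Ifit2, Ifit3 and Ifit3b rose, and Ifit1 had 1.46. Of the 6 oligoadenylate synthetase genes, 5 rose, by 1.59 (Oasl1) to 3.35 (Oas2), and Oasl2 had 2.03. In the ISG15 group, Isg15 (3.51), its protease Usp18 (3.82) and the ligase Herc6 (2.60) rose, and the ligase Trim25 had 0.05. Parp9 and Dtx3l rose and Parp14 had 1.33. None of the 4 genes Mx1, Mx2, Rsad2 and Cmpk2 passed, with changes of 1.61 to 2.66 and a smallest adjusted p of 0.0597. These 4 genes had large changes with wide spread between mice. Mx2 is annotated as a polymorphic pseudogene in GENCODE M21. Of the 10 other members, 7 rose, led by Ifi44 (3.52), and Sp100, a nuclear body protein, had 0.80, the secreted Lgals3bp 0.66 and Ifi27l2a 2.62.

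**Figure D2:**
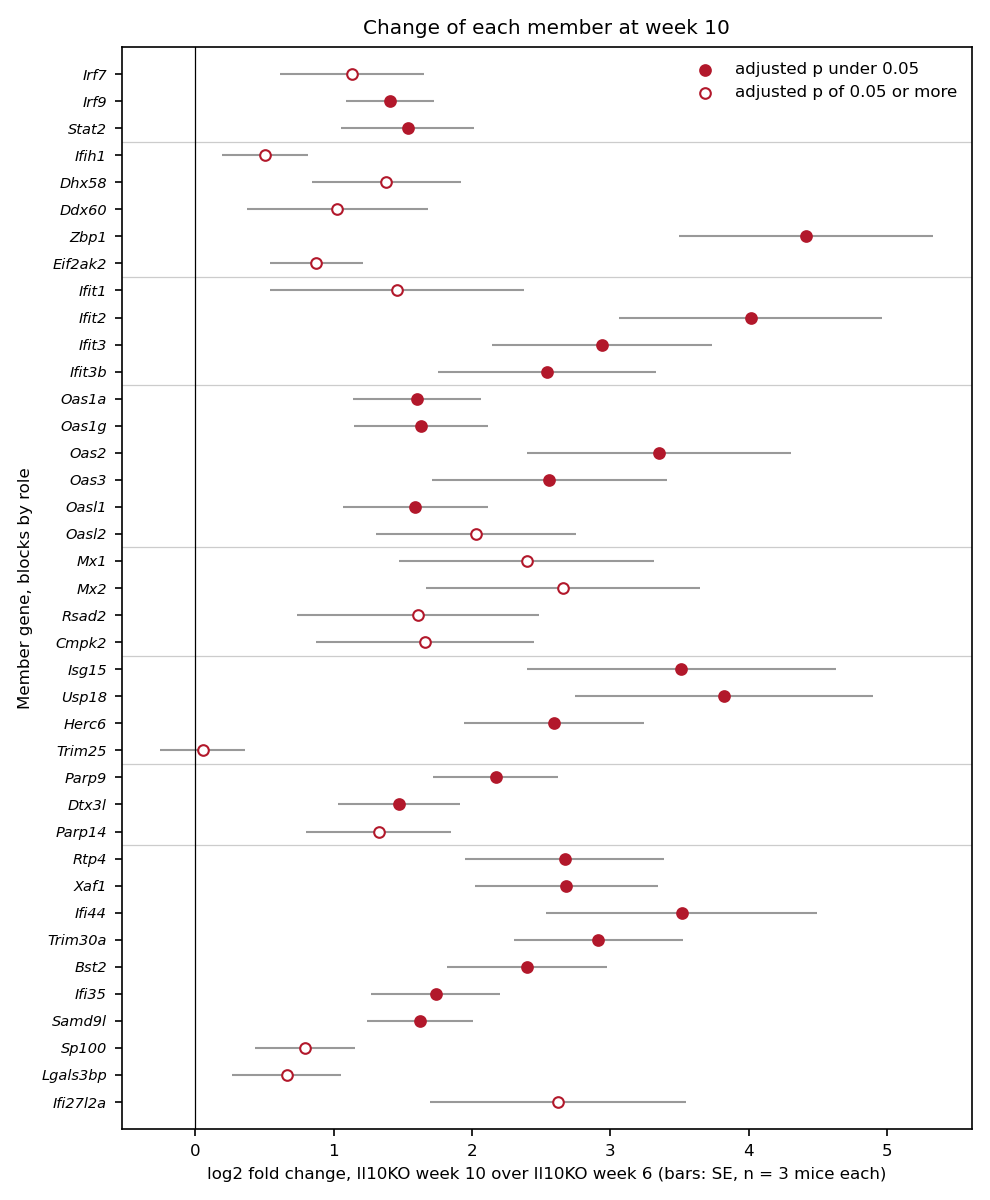
Log2 fold change of each member between Il10KO week 10 and Il10KO week 6, with SE bars (n = 3 mice each) and members in blocks by role. Filled points are the 23 members with an adjusted p under 0.05, and all 39 points lie at or above 0.05.

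The count at week 10 rested on few mice. It was 3 without week 6 replicate 1, 4 without week 6 replicate 2, 15 without week 6 replicate 3, 8 without week 10 replicate 2 and 0 with cage as a factor. On log2(TPM + 1), the median of all genes lay at -0.34; the members' median was 1.42 above it and 2 of 39 changes were negative. Against wild type at week 6 as the reference, 6 members were called higher at week 10, with a median of 0.74, and 15 without wild-type replicate 2. The shares of all genes called in these alternative fits are not given beside the counts. Cages B, C and F held a mouse of week 10 together with an earlier age. Within cage B the members were higher at week 10 than at week 6 by a median log2 of 1.57 (37 of 39 members), and within cage F by 1.33 (38 of 39 members), each from 1 mouse per age.

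At week 8 the members were higher than at week 6 without passing the test. Of 39 members, 0 were called (edgeR; 12 at an unadjusted p under 0.05, and 2 by DESeq2), where 0.0675% of all genes rose. All 39 changes were positive, with a median of 1.16, against 0.03 over all genes. The groups did not overlap for 12 of 39 members, against 11.1% of all genes. Against wild type as the reference the median was -0.09 and 22 of 39 changes were negative, and without wild-type replicate 2 it was 0.72. With cage as a factor the median was 0.60, and within cage B, with 1 mouse of each age, it was 0.51 (37 of 39 members higher).

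Zbp1 had 26.3, 107 and 174 CPM at week 8, against 7.19, 9.89 and 23.3 CPM at week 6. Week 8 replicate 1 was just above the highest week 6 mouse and the other 2 were far above it; the change was 2.93 ± 0.86 (adjusted p = 0.288). Ifit2 had 23.8, 86.4 and 172 CPM at week 8, against 9.697, 10.9 and 13.4 CPM at week 6. It showed the same order of mice, with a change of 3.05 ± 0.91 (adjusted p = 0.305). Irf9 had 49.96, 62.7 and 67.5 CPM at week 8, against 20.96, 25.7 and 42.01 CPM at week 6, without overlap. Its change was 1.02 ± 0.32 (adjusted p = 0.341). The mice of week 8 followed 1 order over most members: replicate 3 was highest for 31 of 39 and replicate 1 lowest for 36 of 39.

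At week 12 the members stood above week 6 in level, and 0 of 39 were called (edgeR; 23 at an unadjusted p under 0.05), where 1.36% of all genes rose. Their median log2 change was 1.30, against 0.00 over all genes, and 37 of 39 changes were positive. Against wild type as the reference the median was 0.09 and 16 of 39 changes were negative, and without wild-type replicate 2 it was 0.94. The week 12 mice lay above the week 6 mice for 21 of 39 members, against 32.8% of all genes. The count depended on the fit: it was 28 with only the compared groups, 23 with voom and a weight per group, 18 without the week 14 libraries, 17 with RIN as a covariate, 14 by DESeq2 and 2 with the replicate block. The 1.36% above belongs to the main fit, and the shares of all genes called in these other fits are not given. Within cages A and B, with 1 mouse of each age, the median was 2.29 (39 of 39 members higher) and 2.18 (37 of 39).

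Irf9 had 74.2, 84.8 and 52.2 CPM at week 12, against 20.96, 25.7 and 42.01 CPM at week 6. The groups did not overlap, and the change of 1.25 ± 0.32 had an adjusted p of 0.0554. Zbp1 had 144, 202 and 79.2 CPM at week 12, against 7.19, 9.89 and 23.3 CPM at week 6. All 3 week 12 mice were higher, with a change of 3.40 ± 0.88 (adjusted p = 0.0591). Ifit2 had 86.7, 176 and 48.3 CPM at week 12, against 9.697, 10.9 and 13.4 CPM at week 6. Its groups were separate as well, with a change of 3.19 ± 0.92 (adjusted p = 0.0768). Replicate 2 was the highest week 12 mouse for 38 of 39 members and replicate 3 the lowest for 34.

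Between consecutive ages from week 8 on, no member passed the edgeR test. Between week 10 and week 8, 0 of 39 members were called (9 at an unadjusted p under 0.05; 0 by DESeq2), where 0.117% of all genes rose; without the 3 week 14 libraries it was 4, all higher. The median change was 0.77, and the groups did not overlap for 12 members that were higher, against 12.5% of all genes. Trim30a had 73.8, 136 and 77.01 CPM at week 10, against 15.6, 23.6 and 45.7 CPM at week 8, without overlap and with a change of 1.76 ± 0.59 (adjusted p = 0.162). Bst2, the tetherin that holds budding virus at the cell surface, had 83.7, 94.2 and 73.9 CPM at week 10, against 17.7, 46.7 and 31.01 CPM at week 8. It did not overlap and had a change of 1.40 ± 0.56 (adjusted p = 0.209). Ifit3 had 8.45, 42.5 and 28.3 CPM at week 10, against 5.93, 8.09 and 7.88 CPM at week 8. The lowest week 10 mouse was close to the highest of week 8, and the change was 1.86 ± 0.76 (adjusted p = 0.215). Ifit3b had 0.10, and the summed counts of this near-identical pair had 0.76 (adjusted p = 0.518). Within cage C, which held 1 mouse of each age, the members' median was 1.14 higher at week 10.

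Between week 12 and week 10, 0 of 39 members were called (5 at an unadjusted p under 0.05; 0 by DESeq2), where 0.239% of all genes fell. The median change was -0.69, and the groups did not overlap for 10 members that were lower, against 12.0% of all genes. With cage as a factor the median was 0.01, and within cage B 25 of 39 members were higher at week 12 than at week 10. Eif2ak2 had 43.8, 44.9 and 44.4 CPM at week 12, against 58.7, 88.1 and 96.1 CPM at week 10. It did not overlap, with a change of -0.87 ± 0.33 (adjusted p = 0.24). Ifit3 had 9.74, 10.98 and 3.696 CPM at week 12, against 8.45, 42.5 and 28.3 CPM at week 10, with overlap and a change of -1.70 ± 0.75 (adjusted p = 0.313). Its near-identical partner Ifit3b had 0.11, and the summed pair -0.57 (adjusted p = 0.798). Samd9l had 106, 167 and 98.4 CPM at week 12, against 249, 219.5 and 187 CPM at week 10. Its groups were separate, with a change of -0.82 ± 0.38 (adjusted p = 0.332).

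**Figure D3:**
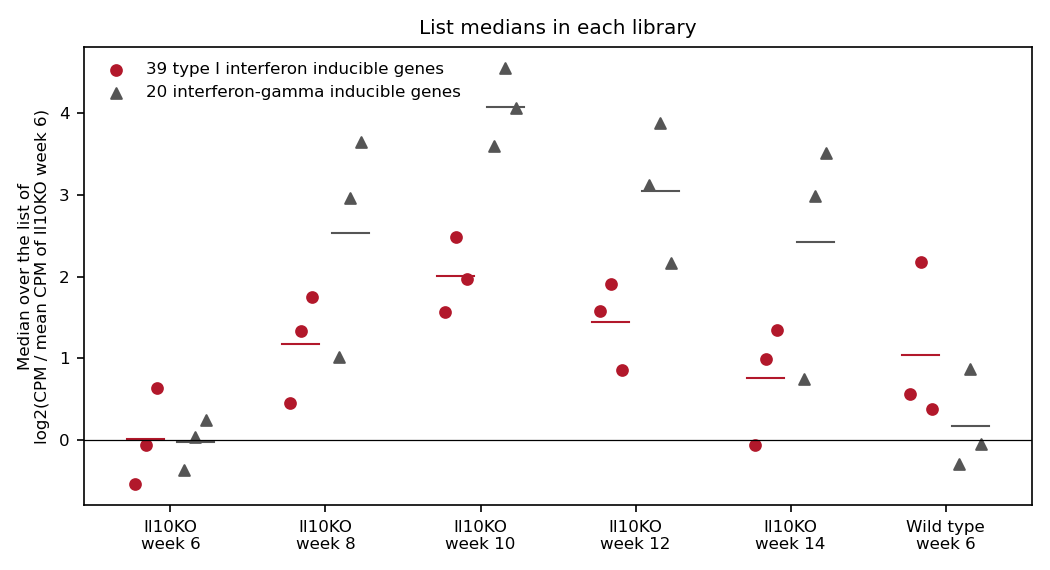
Median over a gene list of log2 CPM over the geometric mean CPM of Il10KO week 6, for each library (points). Short lines are the mean of the 3 mice of a group. For the interferon-gamma inducible genes alone a small constant was added to each CPM, which shrinks the values of low-level genes. The 39 antiviral genes (circles) reach 1.56 to 2.49 at week 10, and wild-type replicate 2 reaches 2.17, where the 20 interferon-gamma inducible genes (triangles) are at 0.87.

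Week 14 held 2 kinds of library. In replicate 1, with a RIN of 9, the members' median log2 level lay at -0.06 relative to the geometric mean of week 6. Replicates 2 and 3, with RINs of 6.5 and 5.8, lay at 0.99 and 1.34. Against week 6, 11 of 39 members rose and 0 fell, where 24.5% of all genes rose, a share close to that of the members. On log2(TPM + 1), 1 member was higher and 7 were lower. Of the 39 changes in CPM 28 were positive, with a median of 0.80, against -0.06 over all genes; on log2(TPM + 1), where the median of all genes was -0.74, 27 were negative. The groups did not overlap for 2 members that were higher, against 19.2% of all genes. The count was 0 with RIN as a covariate, 0 with cage as a factor, 0 with only the compared groups, 0 with voom and a weight per group and 0 without replicates 2 and 3. It was 17 without week 14 replicate 1 (15 higher and 2 lower), 1 without replicate 2 and 4 without replicate 3. It was 3 without week 6 replicate 1 and 4 without week 6 replicate 2. The shares of all genes called in these other fits are not given.

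Zbp1 had 29.4, 306 and 281 CPM at week 14, against 7.19, 9.89 and 23.3 CPM at week 6. Even replicate 1 was above the week 6 mice, and the change was 3.93 ± 0.90 (adjusted p = 0.00676), and 1.13 without replicates 2 and 3. Ifi27l2a had 6.98, 200.4 and 119 CPM at week 14, against 9.76, 6.39 and 7.11 CPM at week 6. Replicate 1 lay within week 6, so that the change of 3.81 ± 0.97 (adjusted p = 0.0103) came from replicates 2 and 3, and it was -0.16 without them. Bst2 had 16.4, 127 and 84.7 CPM at week 14, against 15.4, 11.2 and 21.1 CPM at week 6. The same split held, with a change of 2.26 ± 0.58 (adjusted p = 0.0103) and of 0.04 without replicates 2 and 3.

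Rtp4, an RNA-binding inhibitor of flaviviruses, had 14.4, 149.9 and 155 CPM at week 14, against 7.07, 14.04 and 25.6 CPM at week 6. Its change was 2.77 ± 0.72 (adjusted p = 0.0112), and -0.11 without replicates 2 and 3. Irf9 had 37.3, 82.6 and 79.2 CPM at week 14, against 20.96, 25.7 and 42.01 CPM at week 6, again with replicate 1 inside week 6. Its change of 1.17 ± 0.32 (adjusted p = 0.0142) was -0.10 on log2(TPM + 1). Ifi35 had 18.05, 76.1 and 69.5 CPM at week 14, against 16.2, 16.98 and 22.2 CPM at week 6. It overlapped too, with a change of 1.56 ± 0.46 (adjusted p = 0.0214) and of -0.03 without replicates 2 and 3. Of the 11 members called at week 14, 10 were among the 23 called at week 10, and Ifi27l2a was called at week 14 without being called at week 10. The 2 comparisons share the week 6 mice.

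The members' transcript lengths ran alongside their week 14 levels. Over the 39 members, Spearman's rho between length and the change from week 6 was 0.00 for week 8 and -0.41 for week 10. It was -0.44 for week 12 and -0.71 for week 14. Between consecutive ages it was -0.60 for week 10 against week 8, -0.16 for week 12 against week 10 and -0.59 for week 14 against week 12. The libraries of weeks 8 and 10 had RINs of at least 8.4. All these values share libraries, and no rho over all genes was computed. Of the 20 members up to the median length of 2285 bases, 17 were higher in both replicates 2 and 3 than in replicate 1 of week 14 and 1 was lower in both. Of the 19 longer members, 12 were higher in both and 6 were lower in both. Isg15 and Ifi27l2a, among the shortest, were high in replicates 2 and 3, and the long Parp14 and Stat2 were low there. The part of RIN or transcript length in these values was not tested.

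**Figure D4:**
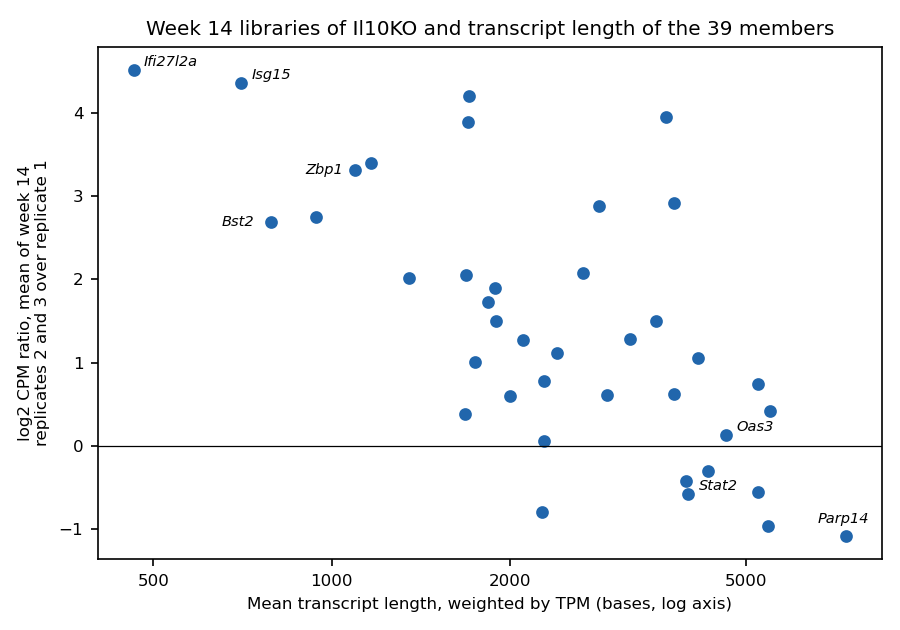
Log2 ratio of the mean CPM of week 14 replicates 2 and 3 over replicate 1, against mean transcript length weighted by TPM (log axis), for the 39 members. The points fall with length (Spearman's rho -0.67), from Ifi27l2a at 463 bases to Parp14 at 7387 bases.

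Between week 14 and week 12, 0 of 39 members were called (5 at an unadjusted p under 0.05; 0 by DESeq2), where 0.00613% of all genes fell. Without week 14 replicate 1, 6 were called, 2 higher and 4 lower. The median was -0.53, and the groups did not overlap for 10 members that were lower, against 5.44% of all genes. Stat2, a part of ISGF3, had 30.1, 20.1 and 20.1 CPM at week 14, against 56.5, 81.8 and 49.99 CPM at week 12. The groups were apart, with a change of -1.42 ± 0.48 (adjusted p = 0.242). Ddx60, a helicase that aids RNA sensing, had 22.6, 24.3 and 36.1 CPM at week 14, against 68.9, 151 and 51.1 CPM at week 12, also apart. Its change was -1.71 ± 0.67 (adjusted p = 0.243). Oas3 had 6.88, 5.62 and 9.401 CPM at week 14, against 29.3, 45.3 and 22.7 CPM at week 12. It did not overlap and had a change of -2.15 ± 0.84 (adjusted p = 0.244). For Stat2, Ddx60 and Oas3, week 14 replicate 1, with a RIN of 9, was also below all 3 week 12 mice. Within cage A, with RINs of 9 and 8.9, 36 of 39 members were lower at week 14 than at week 12, with a median log2 difference of -1.63 from 1 mouse per age. Within cage E, with RINs of 5.8 at week 14 and 8.8 at week 12, 24 of 39 were higher at week 14, with a median of 0.53.

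Across all 5 Il10KO ages, 16 of 39 members varied by a joint edgeR test, where 27.4% of all genes did. The smallest adjusted p belonged to Trim30a (0.0198), Parp9 (0.0223), Stat2 (0.0244), Zbp1 (0.0248), Dtx3l (0.0256) and Bst2 (0.0304). All 3 of Parp9, Dtx3l and Parp14 were called, as were 6 of the 10 other inducible proteins, and none of Mx1, Mx2, Rsad2 and Cmpk2. The count was 0 with cage as a factor. It fell to 0 without week 6 replicate 1 or 2, to 5 without week 6 replicate 3, to 2 without week 10 replicate 2, and to 1 and 2 without week 14 replicate 2 and 3. Without week 14 replicate 1 it was 28, and without week 8 replicate 2 it was 10. Without week 12 replicates 1 and 2 it was 6 and 8. The 27.4% of all genes belongs to the main fit, and the shares in these other fits are not given.

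The lipocalin value of a mouse, a marker of gut inflammation given in ng/g, ranged from 2.27 to 4.72 in Il10KO mice of week 6 and from 102 to 136 in those of week 8. It ranged from 339.5 to 554 in mice of week 10, from 444 to 2574 in those of week 12 and from 2044 to 4289 in those of week 14. The members' means did not follow this order: 30 of 39 were highest at week 10 in CPM, and 25 in TPM. Among mice of 1 age, 0 of 39 members had a slope on log10 lipocalin that passed the test (edgeR; 0 at an unadjusted p under 0.05, 1 by DESeq2 at that level), as did 0% of all genes. The slopes were negative for 36 of 39 members, with a median of -0.94 per 10-fold lipocalin, against -0.07 over all genes. Without week 12 replicate 2 the median was 0.12 and 19 slopes were negative, and with cage as a factor it was -0.11. Ifih1 ran from 63.2 CPM over a median of 95.7 to a highest level of 170.1 CPM in the 15 Il10KO libraries, and its slope was -0.96 ± 0.46 (adjusted p = 0.888). Ddx60 ran from 11.04 over 48.7 to 151 CPM, with a slope of -1.93 ± 0.94 (adjusted p = 0.888). Parp14 ran from 31.9 over 76.4 to 277 CPM, with a slope of -1.69 ± 0.82 (adjusted p = 0.888). The highest of these 3 were in week 8 replicate 3, week 12 replicate 2 and week 10 replicate 3, none of them at week 14, where lipocalin was highest.

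At week 6 the members were lower in Il10KO than in wild type in every case, without passing the test. Of 39 members, 0 were called (edgeR; 19 at an unadjusted p under 0.05, 0 by DESeq2), as were 0% of all genes in this direction. All 39 changes were negative, with a median of -1.26, against -0.01 over all genes, and 7 of 39 did not overlap, against 13.1% of all genes. Dhx58, which encodes the RNA sensor LGP2, had 7.59, 8.91 and 17.4 CPM in Il10KO, against 20.8, 64.3 and 19.4 CPM in wild type. The highest Il10KO mouse was just below the lowest wild-type mouse, with a change of -1.62 ± 0.54 (adjusted p = 1). Irf9 had 20.96, 25.7 and 42.01 CPM in Il10KO, against 52.2, 67.2 and 48.3 CPM in wild type, without overlap. Its change was -0.92 ± 0.32 (adjusted p = 1). Rsad2, whose product viperin makes a chain-terminating nucleotide, had 3.37, 7.46 and 11.5 CPM in Il10KO, against 5.36, 113 and 8.91 CPM in wild type. Here 1 wild-type mouse was far above the other 5, and the change of -2.51 ± 0.90 (adjusted p = 1) was 0.06 without it. Without wild-type replicate 2 the median of the members was -0.35, 28 of 39 changes were negative and 1 member had an unadjusted p under 0.05.

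Wild-type replicate 2 had high levels of most antiviral genes, and its labels give no lipocalin value. Its members' median log2 level over the geometric mean of Il10KO week 6 was 2.17, against 0.56 and 0.37 in wild-type replicates 1 and 3. That level was also above the 1.56 and 1.97 of week 10 replicates 1 and 3. For 38 of 39 members it was the highest wild-type library, for 27 it was more than 2-fold above both others, and for 12 it was above all 15 Il10KO libraries. Rsad2 had 113 CPM there, against 45.3 CPM in the highest Il10KO library. Ifit1 had 308 CPM, against 106.5 CPM in the highest Il10KO library. Cmpk2 had 152 CPM, against 87.6 CPM in the highest Il10KO library. Rsad2, Ifit1 and Cmpk2 thus reached their highest level of all 18 libraries in a wild-type mouse. Rsad2 was 3.90 above the mean of wild-type replicates 1 and 3 on the log2 scale. For ratios of this kind a small constant was added to each CPM, which shrinks those of low-level genes most. Ifi27l2a (0.05) and Irf9 (0.42) were the members that differed least between this mouse and the other wild-type mice.

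Many interferon-gamma inducible genes were high in this mouse too. Of the 20 genes of that list, 11 were more than 2-fold above both other wild-type mice. The list's median log2 ratio over wild-type replicates 1 and 3 was 1.08, against 1.65 for the members. The added constant shrinks the ratios of low-level genes, such as Cxcl9 with 1.20 CPM against 0.270 and 0.372 CPM. The size of the gap between the lists therefore depends on it. Cxcl10, a chemokine induced by both kinds of interferon, was 3.34 higher and Gbp3, a guanylate-binding protein, 2.18 higher on the log2 scale. Ido1 differed by 0.19, but it had only 0.356 CPM against 0.210 and 0.292 CPM. At that level the constant shrinks the ratio strongly. The difference between the lists was not tested. The neutrophil markers of wild-type replicate 2 summed to 3.804 CPM, close to the 2.31 and 2.45 CPM of the other wild-type mice, and its 12 epithelial markers to 13212 CPM, against 16106 and 14306 CPM. Its macrophage and monocyte markers summed to 396 CPM, against 258 and 296 CPM in the other wild-type mice, and their part in these levels was not tested. Its RIN was 9.2 and its total 32385719 counts.

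The interferons themselves were almost without reads. Over the transcript tables, 18 of the 20 type I and type III interferon genes had no library with 1 or more estimated counts, Ifnb1 and the interferon-alpha genes among them. With no read seen, up to 3 counts remain possible in a library. The exceptions were type III genes. Ifnl2, which encodes a lambda interferon, had 8 estimated counts in wild-type replicate 2 (exact 95% Poisson interval 3.45 to 15.8, counting error only) and 0 in the other 17 libraries. Ifnl3 had 1 count in wild-type replicate 2 and 1 in week 14 replicate 2, and 0 elsewhere. The library with most of the lambda interferon counts was thus the wild-type library with the high antiviral genes, in 1 mouse and with no replicate.

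**Figure D5:**
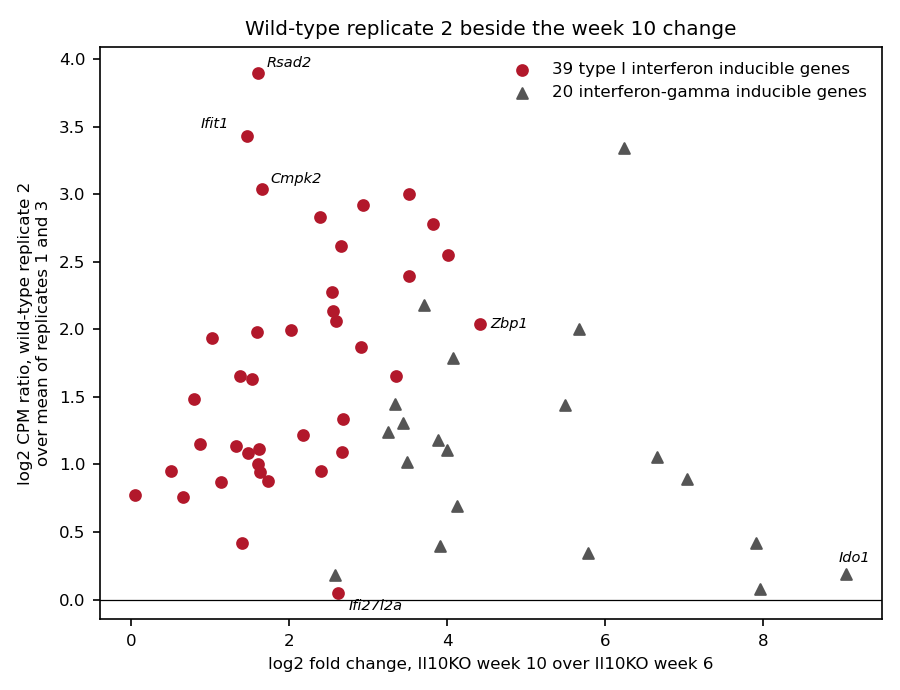
Log2 CPM ratio of wild-type replicate 2 over the mean of wild-type replicates 1 and 3, against the log2 fold change between Il10KO week 10 and Il10KO week 6, for the 39 antiviral genes (circles) and 20 interferon-gamma inducible genes (triangles). Rsad2 (3.90), Ifit1 (3.43) and, of the interferon-gamma list, Cxcl10 (3.34) have the highest plotted ratios in the wild-type mouse. Ido1 has 9.06 at week 10 and 0.19 in the wild-type mouse. Its level there was low, at 0.356 CPM against 0.210 and 0.292 CPM. A small constant was added to each CPM before the ratio, which shrinks the ratios of low-level genes most. Cxcl10 had 11.1 CPM against 0.569 and 0.718 CPM, so its order beside Rsad2 depends on the constant.

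Upstream of the members, 36 of the genes listed for receptors, kinases, factors, sensing adaptors and inhibitors were tested. At week 10 against week 6, 14 of these 36 rose, where 14.6% of all genes rose. Their median log2 change was 0.62, against 0.01 over all genes. Of 9 receptor and kinase genes 1 rose, a share close to that of all genes. That gene was Ifngr1, a chain of the interferon-gamma receptor. It had 580.0, 457 and 345 CPM at week 10, against 243, 253 and 242 CPM at week 6, with a change of 0.90 ± 0.24 (adjusted p = 0.0207). Ifnar1, a chain of the type I receptor, had 43.04, 29.01 and 30.3 CPM at week 10, against 38.9, 40.6 and 35.1 CPM at week 6, and so overlapped. Ifnar1 is named for its role and was picked after its values were seen.

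Among interferon-linked transcription factors, Irf1 and Irf8 rose. Irf1, a main factor of the interferon-gamma response, had 264, 766 and 609 CPM at week 10, against 82.7, 92.6 and 91.7 CPM at week 6 (2.62 ± 0.48, adjusted p = 0.00453). Irf8 had 92.4, 344 and 313 CPM at week 10, against 59.96, 51.2 and 63.4 CPM at week 6 (2.10 ± 0.41, adjusted p = 0.00615). In neither gene did the groups overlap.

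Of 15 tested sensing adaptors and kinases 7 rose, where 14.6% of all genes rose. Sting1, the adaptor of DNA sensing, had 116, 90.5 and 102 CPM at week 10, against 22.1, 20.6 and 25.6 CPM at week 6 (2.18 ± 0.31, adjusted p = 0.00182). Myd88, the adaptor of most Toll-like receptors, had 106, 104 and 84.6 CPM at week 10, against 33.2, 31.4 and 32.6 CPM at week 6 (1.60 ± 0.27, adjusted p = 0.00339). Both were separate between the ages. Cgas, the sensor that makes the ligand of STING, changed by 1.41 ± 0.27 (adjusted p = 0.00546). Sting1 was the 1 pathway gene that also differed between consecutive ages, by 1.76 ± 0.31 between weeks 10 and 8 (adjusted p = 0.0263) and by -1.99 ± 0.31 between weeks 12 and 10 (adjusted p = 0.017). Of the 6 inhibitors 3 rose, beside the same 14.6% of all genes. Socs1, which blocks JAK kinases, had 89.5, 314 and 230.3 CPM at week 10, against 4.04, 3.07 and 4.07 CPM at week 6 (5.82 ± 1.03, adjusted p = 0.00385). Socs3, which acts on STAT3 signalling, had 197, 146 and 162 CPM at week 10, against 7.89, 3.16 and 5.76 CPM at week 6 (4.91 ± 0.83, adjusted p = 0.00339). Ptpn2, a phosphatase that dampens JAK kinases, changed by 1.58 ± 0.39 (adjusted p = 0.0149).

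Fewer pathway genes passed at weeks 8 and 12 than at week 10. At week 8 none of the 36 was called by edgeR, where 0.0675% of all genes rose, and 7 had an unadjusted p under 0.05. The smallest p of each list belonged to Ifnlr1, Irf1, Ikbke and Socs1. At week 12 Irf1 (2.04 ± 0.47, adjusted p = 0.0421) and Tbk1 (1.01 ± 0.24, adjusted p = 0.0442) rose by edgeR. At that age 1.36% of all genes rose. At week 14, 11 of 36 rose and 3 fell, where 24.5% of all genes rose. The 3 that fell were Tyk2 (-0.91), Jak1 (-1.19) and Irf2 (-1.02), with the low RIN of replicates 2 and 3 given above.

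The 20 interferon-gamma inducible genes had larger median changes than the members at weeks 8, 10, 12 and 14. At week 8, 2 of the 20 rose (Ido1 and Nlrc5), where 0.0675% of all genes rose. Their median was 3.11, against 1.16 for the members. At week 10 all 20 rose, where 14.6% of all genes rose, with a median of 4.10, against 1.74. At week 12, 11 rose, where 1.36% of all genes rose, with a median of 3.64, against 1.30. At week 14, 13 rose, where 24.5% of all genes rose, with a median of 2.97, against 0.80. The low RIN of week 14 replicates 2 and 3 applies here too. Ifng itself had 6.15, 15.2 and 5.06 CPM at week 10, against 0.0612, 0 and 0.0313 CPM at week 6. Some members respond to interferon gamma as well, and no test separated the lists. Beside these changes, summed macrophage and monocyte markers were 764 to 1072 CPM at week 10, against 282 to 381 CPM at week 6. Of these 10 markers, 6 had positive and 4 negative changes, with a median log2 change of 0.44. Summed T cell markers were 39.3 to 108 CPM, against 25.4 to 40.8 CPM, with 7 of 8 changes positive and 1 negative. Summed plasmacytoid dendritic cell markers were 298 to 527 CPM at week 10, against 951 to 1034 CPM at week 6. That list holds genes made by other colon cells too. Its 8 markers went both ways, with 3 positive and 5 negative changes, from -1.55 to 5.28, and 1 called in each direction. Siglech, its defining marker, had 2.498, 1.81 and 1.596 CPM at week 10, against 3.67, 3.35 and 3.73 CPM at week 6. The part of these cell types in the members' changes was not tested.

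Many members are neighbours on their chromosome. On chromosome 19, Ifit2, Ifit3, Ifit3b and Ifit1 follow each other on the plus strand, with starts 24439 to 32901 bases apart, and on chromosome 5 Oas2, Oas3, Oas1g and Oas1a lie on the minus strand. Rsad2 and Cmpk2 on chromosome 12 point away from each other with starts 12752 bases apart, and their CPM had a Spearman's rho of 0.89 over the 18 libraries. Dtx3l and Parp9 on chromosome 16 overlap head to head, with starts 681 bases apart and a rho of 0.78; the strand setting of the quantification is not given in the sources used here. Oas1g and Oas1a had a rho of 0.98. These correlations are descriptions over libraries that share depth and group. Within the Ifit cluster the log2 change between week 10 and week 6 was 4.01 for Ifit2 and 1.46 for Ifit1, of which Ifit2 alone passed, whereas wild-type replicate 2 had 63.4 CPM of Ifit2 and 308 CPM of Ifit1. The difference between these 2 genes was not tested.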

How the data were processed

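Distal colon RNA of 18 mice was read in pairs. The authors ran FastQC and kallisto on build mm10, per the submitters' processing notes, with versions not given in the sources used here. The deposited gene tables hold expected counts, rounded estimated counts per gene symbol, and TPM, the authors' length-scaled values, for 16321 genes with sums of at least 50. The deposited transcript tables per library, per the file headers, give estimated counts and TPM. Interferon genes and transcript lengths came from these, matched to GENCODE M21.

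Groups came from the labels. Counts were tested with edgeR 4.0.16 (TMM, filterByExpr, quasi-likelihood F-test, 6 group means, Benjamini-Hochberg over 16300 genes, threshold 0.05, two-sided); the slope fit kept 16182 genes. CPM are TMM-scaled. Alternatives used DESeq2 1.42.0, limma 3.58.1 on log2(TPM + 1) and log2(TPM + 0.1), RLE, no filter, covariates and left-out libraries; a fit without week 14, voom with a weight per group and wild type less its replicate 2 were added once values were known. The members, roles and lists were chosen with earlier results of these data known. Members named are, per comparison, the 6 called with the smallest p, or the 3 smallest where fewer than 3 were called, plus the member with the highest mean log2 TPM of each role; pathway lists give up to 3 called genes. A result of the pathway lists is not reported here. Columns of other series numbered 0. Steps were tested on simulated data. Replicate numbers did not pair mice, as given in the closing section. Totals of 26495521 to 35497101 limit precision little beside the spread between mice (common biological coefficient of variation 0.394). Python was 3.11.15 and R 4.3.3.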

Additional observations from a re-analysis of the deposited data

Results flagged for a closer look

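Ifnl2, a lambda interferon gene that no comparison uses because it is outside the gene tables, had 8 estimated counts in wild-type replicate 2 and 0 in the other 17 libraries. It is listed because 8 counts lie above the 3 that a count of 0 allows. It rests on 1 mouse, and no replicate bears on it.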

How the results depend on the processing

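The replicate numbers did not pair the mice: deviations of same-numbered libraries from their group means correlated at -0.66 to 0.55, over 0.1 in 16 of 45 pairs. With the replicate block, 2 members were called at week 12 against week 6 in place of 0, and no other count moved by over 1.5 times. The shares of all genes called under the alternatives are not given, so these counts describe the fits alone. Counts that moved by over 1.5 times were as follows. Il10KO week 6 against wild type had 3 with voom and a weight per group, and week 8 against week 6 had 2 by DESeq2. Week 10 against week 6 (23) had 0 with cage as a factor, 6 with wild type as the reference and 15 with that reference less its replicate 2. Week 12 against week 6 (0) had 17 with RIN as a covariate, 28 with only the compared groups, 1 by limma on log2(TPM + 1), 14 by DESeq2, 18 without week 14 and 23 with voom. Week 14 against week 6 (11) had 0 with RIN, with cage, with only the compared groups, with voom and without both libraries of low RIN, and 3 with wild type less its replicate 2; with all of wild type it had 3 higher and 7 lower. Week 10 against week 8 (0) had 4 without week 14. The test across ages (16) had 0 with cage, 25 by limma on log2(TPM + 1) and 29 by DESeq2. Leaving out single libraries gave 3 to 22 at week 10, 1 to 17 at week 14, 0 to 6 for week 14 against week 12 and 0 to 28 across ages. Of 614 values of named members under alternatives, 520 kept direction and side of the threshold, 63 lost the call, 24 gained it and 7 reversed: Rsad2 against wild type to 0.060 without wild-type replicate 2 (-3.04 to 0.060 over single libraries left out), Ifi27l2a at week 14 to -0.0052 with RIN and to -0.16 without both libraries of low RIN, Rtp4 to -0.11 and Ifi35 to -0.035 without them, Irf9 to -0.10 on log2(TPM + 1), and Ifit3b at week 12 against week 10 to -0.57 with Ifit3 and Ifit3b summed. The causes were not tested. Depth limits the interferon genes, where a count of 0 allows up to 3.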
